A study of Mus musculus with 2 samples.

Results

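The genes described are 6 genes of the NADPH oxidases: Cybb, Cyba, Ncf1, Ncf4, Rac2 and Nox4, picked by name out of 31053 genes counted. They were followed in 2 droplet single-cell libraries, replicates 1 and 2, that form 1 group: brain tumour of C57BL/6 mice, labelled as mIDH1 (mutant IDH1) tumour cells taken at the symptomatic stage. There was no group of another genotype, treatment or time, so every comparison is between cell types of the same libraries. How the tumours were started, the age of the mice and whether the libraries came from separate animals are not given in the sources used here. P-values therefore measure only how differences between gates varied between these libraries, which may be technical, with the spread pooled over genes. Cells were assigned by gates on raw UMIs (unique molecular identifiers, which count captured RNA molecules) of genes outside the 6. The tumour gate took cells with an Nras level of at least 1000 CPM (UMIs of a gene per 1000000 UMIs). The C1qa gate, for macrophages and microglia, needed at least 5 C1qa UMIs and was split into Cx3cr1-high, with at least 2 Cx3cr1 UMIs, and Cx3cr1-low. The monocyte gate needed at least 1 Ly6c2 and 5 Lyz2 UMIs. The neutrophil gate needed at least 10 S100a8 and S100a9 UMIs together. The basophil gate needed 1 Mcpt8 UMI, the dendritic cell (DC) gate 1 Ccr7 UMI and the T gate 1 Cd3e UMI.

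The phagocyte NADPH oxidase moves electrons from NADPH across a membrane to oxygen and so makes superoxide, which phagocytes use against microbes and in signalling. Cybb encodes gp91phox (NOX2), the catalytic subunit, and Cyba encodes p22phox, its partner in the membrane, which stabilises it. On activation cytosolic subunits, among them p47phox (Ncf1) and p40phox (Ncf4), move to the membrane together with the GTPase Rac2, which is largely restricted to blood cells. Nox4 is a homologue of Cybb that also pairs with p22phox but needs no cytosolic subunits, and it is known from kidney, vessel wall and several tumours. In brain, microglia are the resident cells best known for the phagocyte oxidase.

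The sequences just upstream of the gene starts are shown for the members with an entry in the RefSeq promoter table (GRCm38.p6), because the members differed between gates and ETS-family factors such as PU.1 (Spi1), which drives many phagocyte genes, recognise a GGAA core. The table held 4 of the 6 members, and Ncf4 and Rac2 were without an entry. Each line gives the 250 bases before the RefSeq start, 5′ to 3′ on the gene's strand, and capitals mark GGAA on either strand (GGAA or TTCC). The windows are chrX:9469325-9469574 on the minus strand for Cybb, chr8:122432941-122433190 on the minus strand for Cyba, chr5:134229626-134229875 on the minus strand for Ncf1 and chr7:87246399-87246648 on the plus strand for Nox4.
Cybb: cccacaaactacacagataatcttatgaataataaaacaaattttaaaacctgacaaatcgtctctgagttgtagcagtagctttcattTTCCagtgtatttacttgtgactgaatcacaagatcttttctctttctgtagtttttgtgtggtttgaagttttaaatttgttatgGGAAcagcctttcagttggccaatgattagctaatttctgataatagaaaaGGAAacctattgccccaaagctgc
Cyba: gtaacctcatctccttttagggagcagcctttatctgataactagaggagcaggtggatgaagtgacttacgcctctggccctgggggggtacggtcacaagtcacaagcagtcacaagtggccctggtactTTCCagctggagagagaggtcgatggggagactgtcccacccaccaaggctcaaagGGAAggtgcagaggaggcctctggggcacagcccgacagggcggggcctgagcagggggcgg
Ncf1: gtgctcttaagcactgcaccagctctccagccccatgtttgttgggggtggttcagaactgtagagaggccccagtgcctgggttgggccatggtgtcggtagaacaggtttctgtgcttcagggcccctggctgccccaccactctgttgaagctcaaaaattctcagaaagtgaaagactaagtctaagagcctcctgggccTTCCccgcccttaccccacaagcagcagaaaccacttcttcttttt
Nox4: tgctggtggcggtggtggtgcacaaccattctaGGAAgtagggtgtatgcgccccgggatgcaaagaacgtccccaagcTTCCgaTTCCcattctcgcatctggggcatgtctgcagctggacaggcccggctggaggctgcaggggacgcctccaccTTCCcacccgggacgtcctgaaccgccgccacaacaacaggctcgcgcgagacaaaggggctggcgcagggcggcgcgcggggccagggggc
The Cybb window held 3 cores, at 161, 75 and 24 bases before the start. Cyba held 2, Ncf1 held 1 and Nox4, which had no UMI in immune-gate cells passing only 1 gate, held 4. The core was common: 93.4% of 32851 promoter windows of this length held at least 1, with a median of 3. The longer letters GAGGAA were in none of the 4 windows on either strand and in 23.3% of all windows. Both the immune-gate genes and the tumour-gate gene Nox4 had the core, so it did not set them apart. The windows also differed in base composition, from 34% G and C in Cybb to 67.2% in Nox4 (median of all windows 52.4%).

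The 6 genes lie on 5 chromosomes. In GENCODE M21 (GRCm38) Cybb spans positions 9435252 to 9487771 of chromosome X, Cyba 122424776 to 122432930 of chromosome 8, and Ncf1 134220053 to 134229625 of chromosome 5. Ncf4 (78244801 to 78262580) and Rac2 (78559167 to 78572783) are both on chromosome 15, on opposite strands. Nox4 spans 87246096 to 87398710 of chromosome 7. The RefSeq windows of Cybb and Nox4 lie inside these spans and overlap no exon. All 6 are annotated as protein coding, with 6 to 18 exons in the principal transcript.

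The libraries held 2704 and 2266 barcodes with 63.0 and 58.9 times 1000000 UMIs. A total of 1740 and 1446 barcodes passed the limits of at least 200 genes and at most 15% mitochondrial UMIs, and 10 barcodes occurred in both libraries. Cells passing exactly 1 gate were used, 2618 in all: 1816 tumour, 346 C1qa Cx3cr1-high, 95 C1qa Cx3cr1-low, 64 monocyte, 31 neutrophil, 138 basophil, 76 DC and 52 T. Depth differed widely, with a median of 44092 UMIs per tumour-gate cell, 10242 in the Cx3cr1-high gate and 2074 in the neutrophil gate. Each immune gate was led by markers of its own type (5 of 6 neutrophil markers found in the neutrophil gate, 6 of 6 basophil, dendritic and T markers in theirs), and the monocyte gate held 4 of 5 monocyte markers beside macrophage markers at 5550 and 1639 CPM. Some gates were mixed. Tumour markers (Sox2, Nes, Tnc, Cdkn2a) summed to 216 and 253 CPM in the basophil gate against 563 and 553 CPM in the tumour gate. There, 5 of 138 cells with at least 5 tumour marker UMIs carried 40.0% of the gate's UMIs, and 3 of 76 cells carried 18.1% in the DC gate. In the Cx3cr1-low gate only 10 of 53 and 6 of 42 cells had a Malat1 UMI, a nuclear RNA that intact cells carry. Levels in these gates are given with and without those cells. The order of gates and the shares of cells are from all cells of a gate.

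Most UMIs of the 5 phagocyte members were in the immune gates: 74.1% of all 3041 Cybb UMIs, 76.5% of Cyba, 74.3% of Ncf1, 68.3% of Ncf4 and 70.5% of Rac2, although the tumour gate held 92500165 UMIs. The tumour gate held 9 UMIs of Cybb. Of 111 Nox4 UMIs, 94 were in the tumour gate, 8 in cells passing several gates and none in cells passing only an immune gate.

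Cybb, the catalytic subunit, was highest in the monocyte gate and was found at more than a trace in only 3 of the 8 gates. Its level was 932 CPM in both monocyte libraries, from 228 and 337 UMIs. The Cx3cr1-high gate had 405 and 367 CPM and the Cx3cr1-low gate 298 and 428 CPM. The monocyte libraries stood above all others, while the C1qa gates overlapped each other. Without Malat1-free barcodes, which left 10 and 6 cells, the Cx3cr1-low gate had 444 and 1340 CPM of Cybb, so that 1 library lay above the monocyte gate. The T gate had 30.9 and 15.9 CPM and the DC gate 3.71 and 21.7 CPM (4.45 and 27.0 without cells carrying tumour markers), each resting on 7 UMIs, and the tumour gate 0.0840 and 0.111 CPM. The neutrophil and basophil gates held no Cybb UMI in either library. A level of 3 UMIs, the floor used for a count of 0, would be 42.5 CPM in the small neutrophil gate and 3.64 CPM in the basophil gate. It covers counting error only. Neighbours in this order differed for monocyte and Cx3cr1-high (adjusted p = 1.07e-08) and for Cx3cr1-low and T (1.63e-21), but not for the 2 C1qa gates (1) or for T and DC (0.70). Over the 28 pairs of gates behind these orders, 3.14 to 47.8% of all genes were called.

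Cyba, the membrane partner, was the most abundant member in UMIs in 4 of the 7 immune gates (both C1qa gates, monocyte and DC). It reached 2125 and 2058 CPM in the Cx3cr1-high gate, 2151 and 1793 in the Cx3cr1-low gate and 2131 and 1747 in the monocyte gate. These 3 gates overlapped. The neutrophil gate (1215 and 1221 CPM), the DC gate (1103 and 1064) and the T gate (843 and 954) formed a second level in which neighbours did not differ (adjusted p = 1 and 0.693). The basophil gate was lowest of the immune gates at 366 and 323 CPM, and the tumour gate had 0.714 and 0.892 CPM. Without the cells carrying tumour markers the basophil values were 545 and 607 CPM, still below the T gate, and the DC values 1304 and 1324 CPM. Without Malat1-free barcodes the Cx3cr1-low values were 1886 and 1696 CPM.

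Ncf1, which carries the activating signal to the membrane subunits, had a different order. The DC gate was highest at 409 and 319 CPM, followed by the basophil gate at 276 and 306, the Cx3cr1-high gate at 229 and 234 and the neutrophil gate at 304 and 133. No neighbours differed from the DC gate down to the Cx3cr1-low gate (adjusted p from 0.183 to 1 for each step). Gates further apart in this order did differ. Ncf1 was called between the Cx3cr1-low gate and each of the DC, basophil and Cx3cr1-high gates. It was also called between the monocyte gate and the DC and basophil gates. In these pairs 3.14 to 17.2% of all genes were called. The monocyte gate (151 and 122 CPM) was below the DC, basophil and Cx3cr1-high gates and overlapped the neutrophil gate. The Cx3cr1-low gate (78.3 and 116 CPM) was below all of these. The T gate held 15.5 and 42.4 CPM and the tumour gate 0.147 and 0.245. Without cells carrying tumour markers Ncf1 was 414 and 575 CPM in the basophil gate and 485 and 396 CPM in the DC gate, so that the order of these gates turned. Without Malat1-free barcodes the Cx3cr1-low gate had 133 and 191 CPM, from 13 UMIs.

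Ncf4, the cytosolic subunit that binds phosphoinositide on phagosomes, was high where Ncf1 was moderate. It was 365 and 478 CPM in the neutrophil gate and 323 and 359 in the monocyte gate, which did not differ (adjusted p = 1). The Cx3cr1-low gate had 136 and 126 CPM, the Cx3cr1-high gate 110 and 124 and the T gate 100.5 and 100.7. The step from monocyte to Cx3cr1-low was larger than the spread (adjusted p = 1.13e-05), and those below it down to the T gate were not. The basophil gate held 41.2 and 26.7 CPM, the DC gate 11.1 and 29.0, and the tumour gate 0.0210 and 0.223. Neutrophil and monocyte libraries thus lay above all others. Without cells carrying tumour markers Ncf4 was 61.8 and 50.2 CPM in the basophil gate and 13.4 and 36 CPM in the DC gate. Without Malat1-free barcodes the Cx3cr1-low gate had 199.7 and 82.1 CPM, from 12 UMIs, still below the monocyte gate.

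Rac2, the GTPase of the complex, was highest in the neutrophil gate (1640 and 1381 CPM) and the T gate (1322 and 1336 CPM), which did not differ (adjusted p = 1). The basophil gate followed at 671 and 542 CPM, below the T gate (adjusted p = 0.00184) and above the monocyte gate (0.0212). The monocyte gate (446 and 376 CPM), the Cx3cr1-high gate (375 and 380) and the Cx3cr1-low gate (360 and 393) overlapped. The DC gate held 96.6 and 105 CPM and the tumour gate 0.210 and 0.312. Without cells carrying tumour markers the basophil gate had 1007 and 1004 CPM and the DC gate 116 and 131 CPM. Without Malat1-free barcodes the Cx3cr1-low gate had 177 and 383 CPM, from 22 UMIs.

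Among cells passing exactly 1 gate, Nox4 was found in the tumour gate only, and rarely. There were 44 and 50 UMIs there, or 0.924 and 1.11 CPM, in 40 of 986 and 42 of 830 cells, with at most 3 UMIs in a cell. In the 7 immune gates together there was no Nox4 UMI in 802 cells and 6.72 times 1000000 UMIs, and 3 UMIs there would be 0.446 CPM. Against that floor the tumour gate was at least 2.28-fold higher than the immune gates summed, or 1.84-fold from the lower 95% limit of the tumour count. Gate by gate the immune gates were too shallow to show this difference: with the Cx3cr1-high gate, the deepest, the adjusted p was 0.0782. The absence from the immune gates did not hold under every gating rule. When cells were kept in every gate they passed, the basophil gate held 4 Nox4 UMIs, the DC gate 2 and each C1qa gate 1. All 8 Nox4 UMIs of cells passing several gates were in cells that also passed the tumour gate. Among them, the 134 cells of both the tumour and basophil gates held 4, and the 23 cells of both the tumour and DC gates held 2. Doubled thresholds gave 2 in the DC gate and 1 in the Cx3cr1-high gate. Cyba, the partner Nox4 needs, had 74 UMIs in the tumour gate, and 2 of the 82 cells with a Nox4 UMI had a Cyba UMI (2.44%), against 36 of 1734 cells without one (2.08%). Mural and fibroblast markers summed to 44.3 and 50.5 CPM in the cells with a Nox4 UMI and to 24.0 and 26.7 CPM in the other tumour-gate cells, and the former were deeper (median 49207.5 and 57057.5 against 41195.5 and 45946.5 UMIs). Their part in the Nox4 result was not tested.

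**Figure D1:**
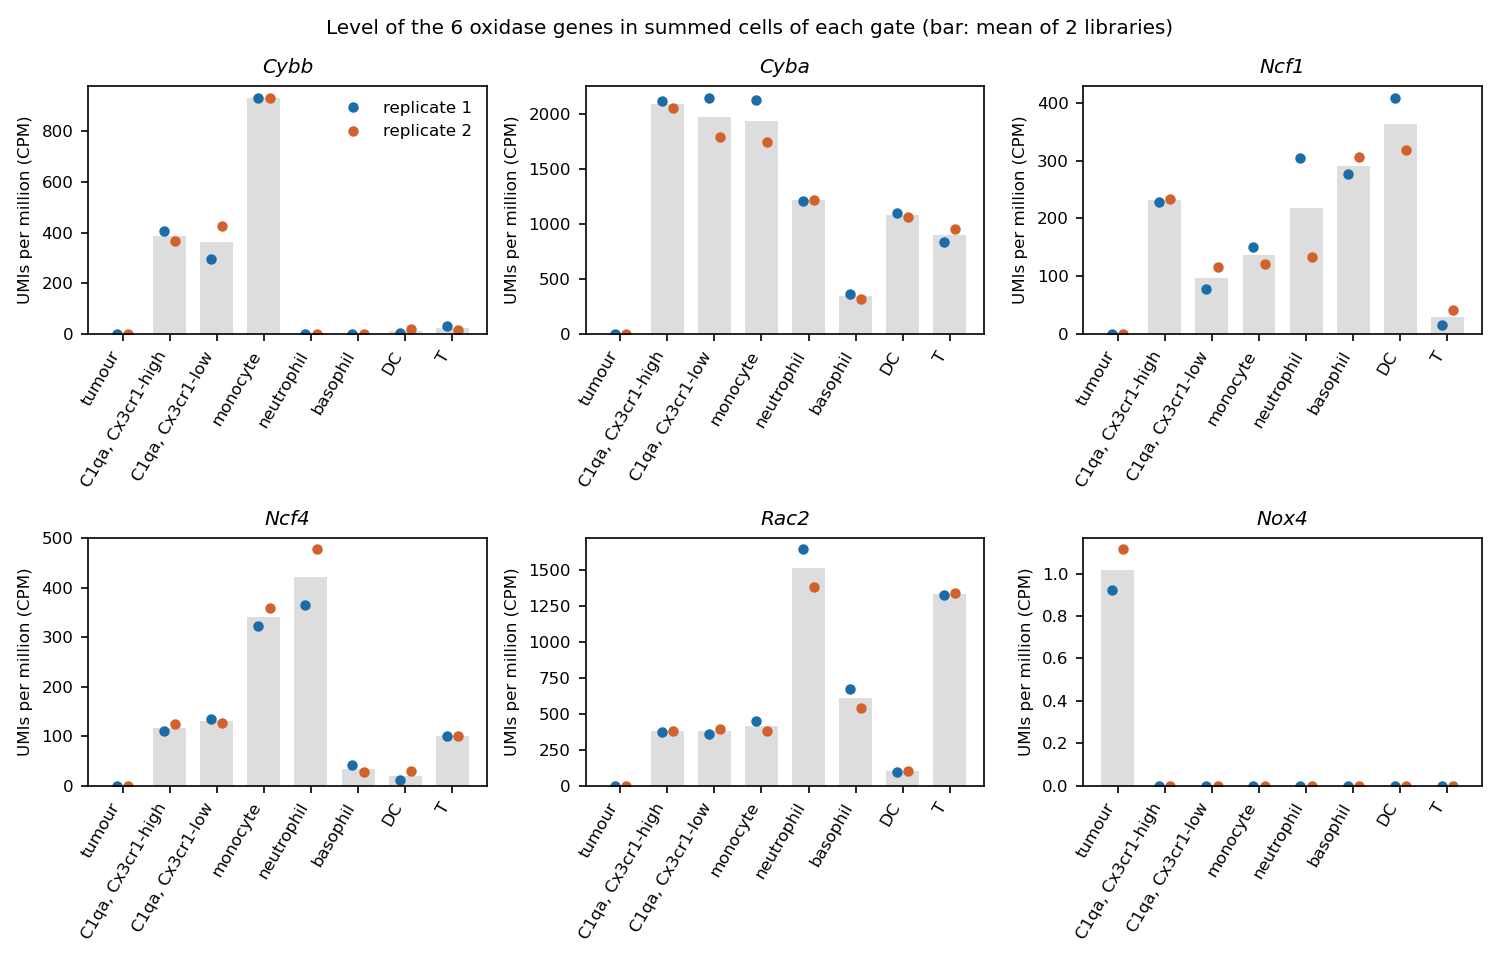
Level of each member in CPM (linear axis from 0, a scale of its own per gene) in the 8 gates; points are the 2 libraries and bars their mean. Cybb peaks in the monocyte gate at 932 CPM, Rac2 in the neutrophil and T gates above 1300 CPM, and Nox4 appears only in the tumour gate near 1 CPM.

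The share of single cells with a UMI gave the same picture where depth allowed. Cybb was found in 93.8% of monocyte-gate cells, 72.0% of Cx3cr1-high and 49.5% of Cx3cr1-low cells, against 0.441% of tumour-gate cells, which were deeper. After thinning each cell to 1000 UMIs these shares were 46.9%, 29.6%, 25% and 0.0554%. None of 31 neutrophil-gate cells had a Cybb UMI, which allows a share of up to 9.68%, and none of 138 basophil-gate cells, which allows up to 2.17% (3 cells of the total). At a median of 2074 UMIs per neutrophil-gate cell this limits cells with a UMI, not cells expressing the gene. Ncf4 was found in 42.2% of thinned monocyte-gate and 36.7% of thinned neutrophil-gate cells and in at most 8.70% elsewhere. Rac2 was found in 76.9% of thinned T-gate, 66.7% of neutrophil-gate and 61.3% of basophil-gate cells. Ncf1 led in the basophil gate (38.0%) and the DC gate (34.2%). At least 4 of the 5 phagocyte members were found together in 89.1% of monocyte-gate and 75.7% of Cx3cr1-high cells, before thinning. The shares were 23.2% in the Cx3cr1-low gate, 12.9 to 13.5% in the neutrophil, basophil and T gates, and 5.26% in the DC gate. Depth differed between these gates, with a median of 3381 UMIs per Cx3cr1-low and 10242 per Cx3cr1-high cell. Thinned shares of Cx3cr1-high and Cx3cr1-low cells were 84.1 and 81.5% for Cyba and 31.9 and 31.5% for Rac2. They were 8.70% in both for Ncf4, and 21.7 and 10.9% for Ncf1. All 60 monocyte-gate cells and all 249 Cx3cr1-high cells with Cybb also had Cyba, as did 4 of 4 and 95 of 97 cells without Cybb. A UMI can also come from free RNA in the droplet. The tumour gate shares (0.220 to 2.09% over these 5 members) are a guide to it, not a measure of it alone. Cells that also passed an immune gate had been left out of the tumour gate. When they were kept, it held 74 Cybb UMIs instead of 9.

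**Figure D2:**
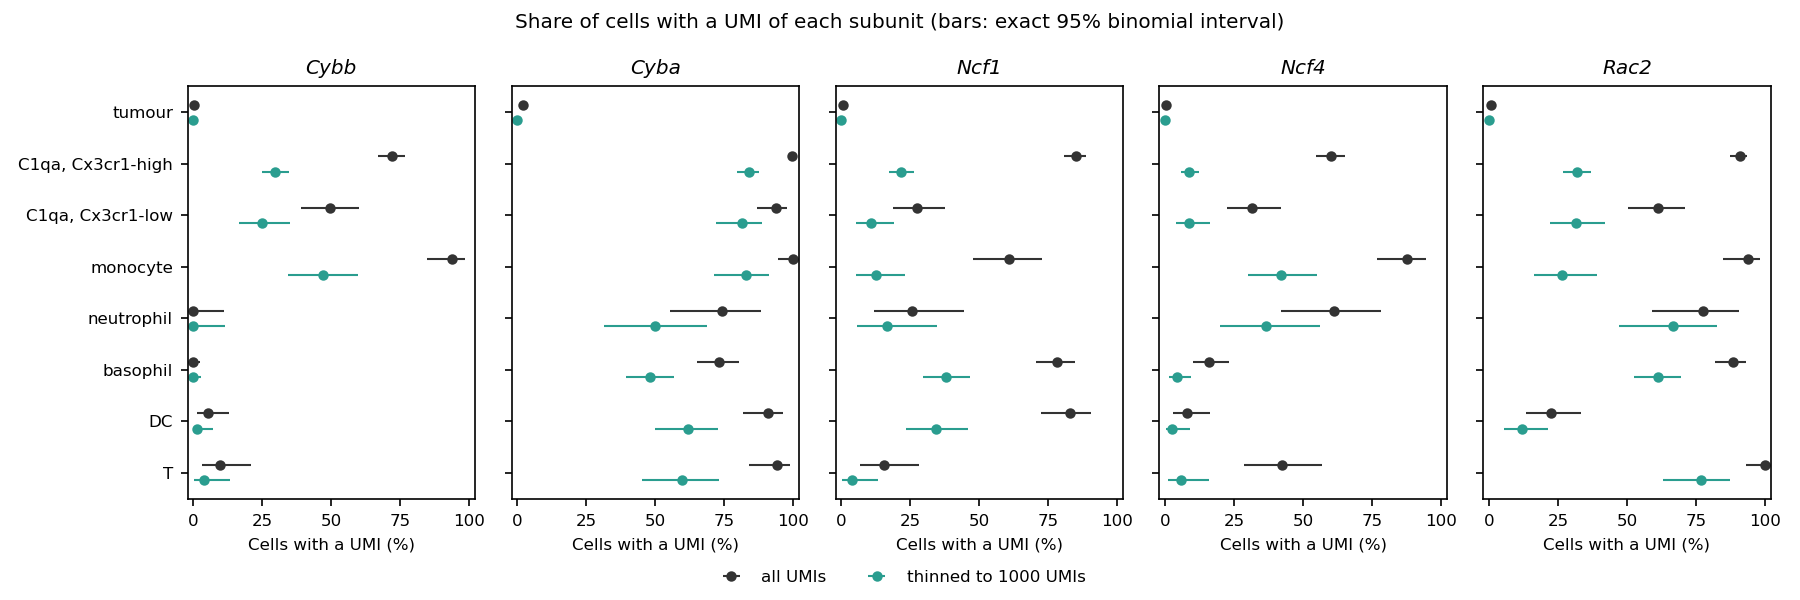
Share of cells in each gate with at least 1 UMI of the member, in percent with exact 95% binomial intervals, from all UMIs (black) and after thinning to 1000 UMIs per cell (green). Cybb leads in the monocyte gate, Ncf1 in the basophil and DC gates and Rac2 in the T gate after thinning.

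The balance between subunits was set out as shares of UMIs, since every UMI is 1 captured molecule whatever the length of the transcript, although capture can differ between genes. Cybb made up 30.4 and 34.8% of Cybb and Cyba UMIs in the monocyte gate, or 2.04 Cyba molecules for each Cybb. It made up 16 and 15.1% in the Cx3cr1-high gate, or 5.42 Cyba for each Cybb, and 12.2 and 19.3% in the Cx3cr1-low gate. The share was 0.336 and 2% in the DC gate, 3.54 and 1.64% in the T gate, and 0 of 86 and 0 of 284 UMIs in the neutrophil and basophil gates. Cyba was captured at 345 to 1218 CPM (means) in these 4 gates. This holds for cells passing 1 gate: with cells kept in every gate they passed, the mean Cybb share was 16.8% in the neutrophil, 10.9% in the T, 8.03% in the DC and 6.23% in the basophil gate. In the Cx3cr1-low gate without Malat1-free barcodes, the Cybb share was 19.0 and 44.1%.

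The balance of the cytosolic pair differed between some gates and overlapped between others. Ncf1 made up 97.3 and 91.7% of Ncf1 and Ncf4 UMIs in the DC gate, 87.0 and 92.0% in the basophil gate and 67.5 and 65.4% in the Cx3cr1-high gate. It made up 31.9 and 25.3% in the monocyte gate, 13.3 and 29.6% in the T gate and 45.5 and 21.7% in the neutrophil gate, where only 45 UMIs gave the share. The Cx3cr1-low gate had 36.6 and 47.9%. The basophil and DC libraries overlapped each other and lay above all others, Cx3cr1-high lay above the remaining gates, and the monocyte, T and neutrophil gates overlapped. With cells kept in every gate the T gate mean moved from 21.5 to 45.3%. Rac2, counted with its ubiquitous relative Rac1, made up 83.0% of their UMIs in the T gate, 76.8% in the neutrophil gate and 66.6% in the basophil gate, as means of the libraries. It made up 52.1 to 58.8% in the monocyte and C1qa gates, 24.2% in the DC gate and 0.115% in the tumour gate. With cells kept in every gate the basophil share was 18.9%. Rac1 itself varied little, from 229 CPM in the tumour gate to 454 in the neutrophil gate.

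**Figure D3:**
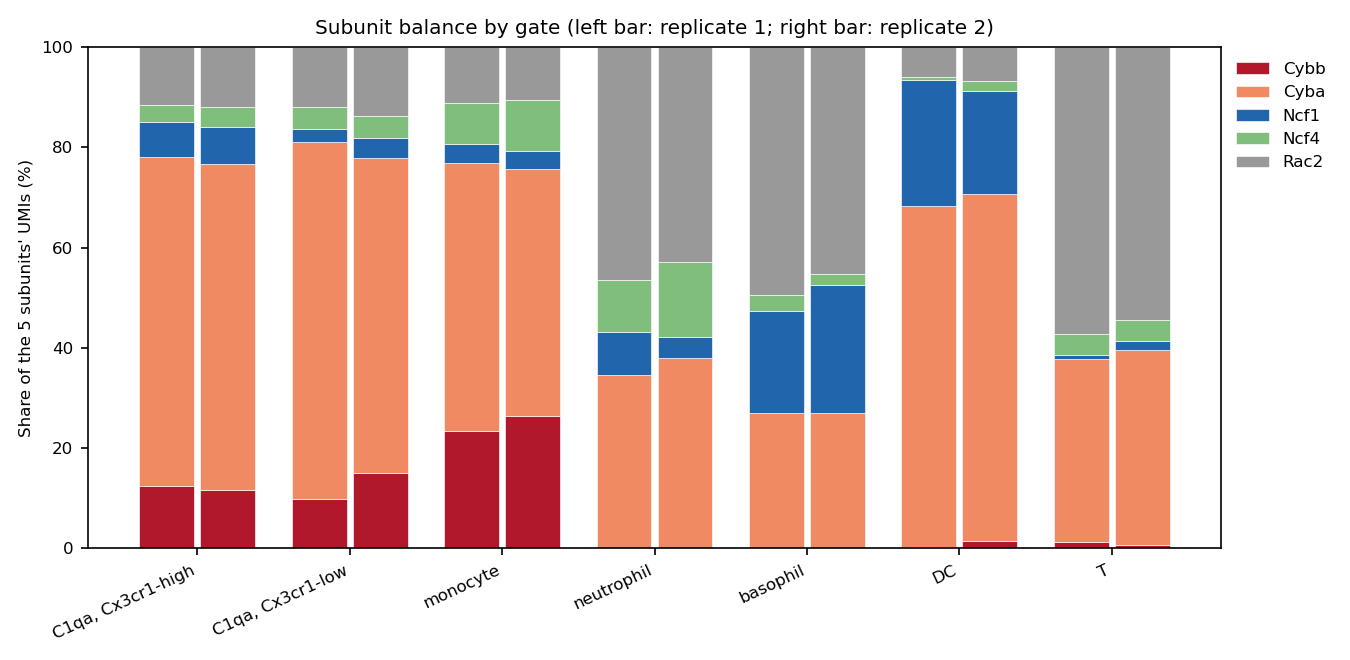
Share of each subunit, in percent of the UMIs of Cybb, Cyba, Ncf1, Ncf4 and Rac2 together, in the 7 immune gates (left bar replicate 1, right bar replicate 2). Cybb takes 23.4 and 26.3% in the monocyte gate and none in the neutrophil and basophil gates, where Rac2 takes 43.0 to 49.6%.

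The gates were then compared by edgeR's quasi-likelihood test on summed counts, with a gene called at a Benjamini-Hochberg adjusted p under 0.05 and a difference of at least 1 on the log2 scale. Against the mean of the 4 phagocyte gates (both C1qa gates, monocyte and neutrophil), the tumour gate was lower in 4 members and higher in none, where 8.82% of the 13437 genes tested were called lower, 33.6% higher and 42.4% in either direction. The log2 differences were -10.92 for Cyba (SE 0.29, adjusted p = 1.52e-300), -9.39 for Ncf1, -10.46 for Ncf4 and -10.78 for Rac2. The median over all genes was 2.07, so the members were far on the other side. That median depended on the fit: it was 0.59 with DESeq2 and 0.58 with cells kept in every gate. Without the neutrophil gate in the mean, 29.6% of genes were called higher and 13.8% lower. Cybb could not be fitted against a mean holding a gate at 0. Against the 3 phagocyte gates with Cybb, it was -12.06 (SE 0.32, adjusted p = 2.70e-298), where 13.8% of genes were called lower. What the tumour gate held was concentrated: 25 of the 40 Cyba UMIs of replicate 2 were in 1 barcode, and without the leading barcode of each library Cyba fell from 0.803 to 0.472 CPM.

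Within the C1qa gate, only Ncf1 differed between Cx3cr1-high and Cx3cr1-low cells (1 of 6 members, higher in the former, where 1.85% of genes were called higher, 1.29% lower and 3.14% in either direction). It was 229 and 234 CPM against 78.3 and 116 CPM without overlap, a log2 difference of 1.21 (SE 0.29, adjusted p = 0.00181). Cybb (0.05), Cyba (0.05), Ncf4 (-0.20) and Rac2 (-0.04) differed by less than their standard errors. With Malat1-free barcodes left out, which kept 16 Cx3cr1-low cells, 3 members were called, as Cyba (1.21) and Rac2 (1.5) joined Ncf1, and 6.59% of genes in either direction. The median over all genes moved from 0.16 to 0.78 with it, and Cyba levels stayed close (1886 and 1696 CPM in the Cx3cr1-low gate against a Cx3cr1-high mean of 2092 before). The Cx3cr1-low gate was also shallower, with a median of 3381 UMIs per cell, and 1 library held red-cell markers at 13809 CPM.

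The monocyte gate differed from the 2 C1qa gates in Cybb and Ncf4. Both were higher in it (2 of 6 members, where 5.82% of genes were called higher, 5.14% lower and 11% in either direction): Cybb by 1.25 (SE 0.18, adjusted p = 5.21e-11) and Ncf4 by 1.40 (SE 0.18, adjusted p = 1.28e-12) on the log2 scale. Cyba (-0.13), Ncf1 (-0.22) and Rac2 (0.05) missed the threshold. Both calls were kept in every alternative with a test. Hvcn1, the proton channel that balances the charge the oxidase moves, went the other way, at 12.3 and 8.29 CPM in the monocyte gate against 104 and 91.6 CPM in the Cx3cr1-high gate (log2 difference from both C1qa gates -2.92, adjusted p = 1.02e-06).

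Between the neutrophil and monocyte gates, both blood-derived phagocytes, 3 of 6 members were called, 1 higher and 2 lower, where 8.57% of genes were (2.32% higher, 6.24% lower). Cybb was at least 21.9-fold lower in the neutrophil gate (0 of 70582 UMIs against 565 of 606257, with a floor of 3 UMIs over the gate). Cyba was lower by -1.14 (SE 0.24, adjusted p = 8.77e-05) and Rac2 higher by 1.41 (SE 0.26, adjusted p = 2.21e-06) on the log2 scale, with no overlap of libraries in either. The Cyba call was lost with DESeq2 (-0.78), RLE factors (-0.78) and filterByExpr (-0.98), the Rac2 call with doubled thresholds (1.04, adjusted p = 0.0563), and both with cells kept in every gate. Ncf1 (0.18) and Ncf4 (-0.17) did not pass. Ncf4 was higher in CPM but lower in the fit, because the scaling factors of the neutrophil gate were 1.32 and 1.29 against 0.972 and 0.902, and with DESeq2's size factors it was 0.19. The absence of Cybb rested on the rule for mixed cells. A further 9 cells passed both the neutrophil and the monocyte gate, with a median of 11332 UMIs, and held 72 Cybb UMIs (848 CPM). The neutrophil and Cx3cr1-high gates shared 7 cells, which held 24 Cybb UMIs. With cells kept in every gate they passed, neutrophil-gate Cybb was 402 and 213 CPM, and it alone of the members was called. In that setting 2.61% of all genes were called, against 8.57% in the main fit. Leaving out doublets called by scrublet kept all 24 and 26 cells that passed the neutrophil gate, so none of those 9 was called. Scrublet called only 0.439% of kept barcodes, and whether those 9 cells are doublets was not tested otherwise.

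The basophil gate had much Ncf1 and Rac2, little Cyba and Ncf4, and no Cybb. Against the mean of the 4 phagocyte gates 3 of 6 members were called, where 20.1% of genes were (16.6% higher, 3.57% lower): Ncf1 higher by 1.02 (SE 0.20, adjusted p = 5.30e-06), Cyba lower by -2.20 (SE 0.19, adjusted p = 1.50e-28) and Ncf4 lower by -2.52 (SE 0.27, adjusted p = 6.59e-19). The median over all genes was 1.01, close to the Ncf1 difference. Without the 5 cells carrying tumour markers that median was 0.31 and 4 members were called, where 12.5% of genes were. Ncf1 was then higher by 2 and Rac2 by 1.28, and Cyba and Ncf4 were lower by -1.23 and -1.54. With cells kept in every gate, 134 cells of both the tumour and basophil gates entered, and other gates gained cells too. Ncf1 (-2.66) and Rac2 (-3.03) then changed sign, and the part of the 134 cells in this was not tested. Against the 3 phagocyte gates with Cybb, basophil-gate Cybb was at least 124-fold lower, where 7.91% of genes were called lower.

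The DC gate had Ncf1 and Cyba but little Ncf4, Rac2 or Cybb. It differed from the phagocyte mean in 2 of 6 members, both lower, where 17.4% of genes were called (12.1% higher, 5.26% lower). Ncf4 was lower by -3.63 (SE 0.34, adjusted p = 2.32e-24) and Rac2 by -2.63 (SE 0.24, adjusted p = 8.80e-26). Ncf1 (0.99) and Cyba (-0.90) passed on p (3.08e-05 and 2.54e-06) but not on size. Without the 3 cells with tumour markers Ncf1 was at 1.41 and called. Against the 3 phagocyte gates with Cybb, Cybb was at -5.64 (adjusted p = 7.73e-54), where 8.99% of genes were called lower. The gate also held B-cell markers (215 and 333 CPM) and, in 1 library, T-cell markers (386 against 18.1 CPM), whose part was not tested.

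The T gate carried Rac2 and Cyba without most of the rest. Against the phagocyte mean 4 of 6 members were called, where 11.7% of genes were (7.08% higher, 4.6% lower): Rac2 higher by 1.14 (SE 0.17, adjusted p = 4.01e-10), and Cyba (-1.12), Ncf1 (-2.50) and Ncf4 (-1.28) lower. Cybb was lower by -4.81 against the 3 gates that had it, where 7.88% of genes were called lower. Against the tumour gate 5 members were higher in the T gate, where 8.75% of genes were called higher, 16.9% lower and 25.6% in either direction, from 6.89 for Ncf1 to 11.91 for Rac2 on the log2 scale. With cells kept in every gate, the Rac2 difference from the phagocytes was 0.96 and no longer called. The Cyba call was lost there too (-0.93), as it was without Malat1-free barcodes (-0.78), with doubled thresholds (-0.99) and with at least 5000 UMIs per C1qa-gated cell (-0.985).

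**Figure D4:**
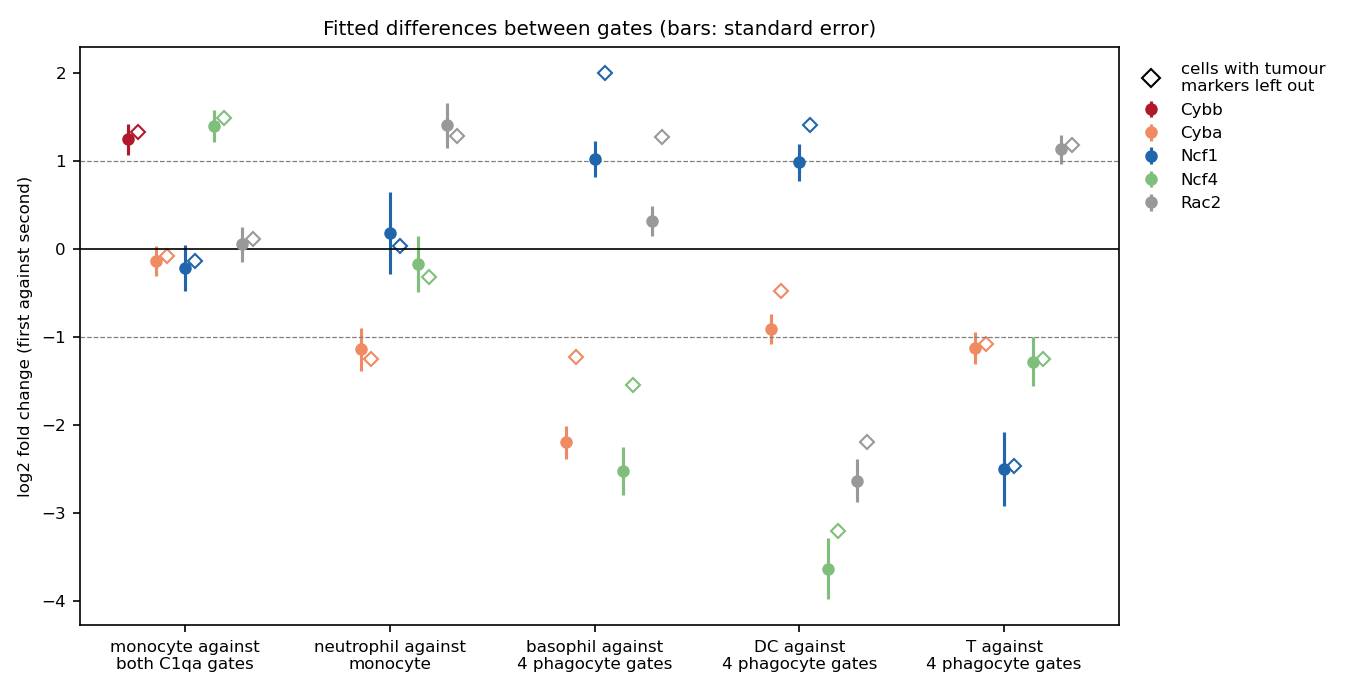
Fitted log2 differences of the members in 5 comparisons (filled points, with standard errors; dashed lines at 1 and -1), with the value after leaving out immune-gate cells that carry tumour markers (open diamonds). Cybb is shown only where no gate was at 0. Leaving those cells out moves the basophil gate most, with Ncf1 from 1.02 to 2 and Rac2 from 0.32 to 1.28.

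The rest of the pathway was given by lists of other genes. Between the tumour and phagocyte gates, the list of other oxidase subunits and homologues had 6 of 13 genes tested, 1 lower and 2 higher, where 33.6% of all genes were called higher and 8.82% lower. Cybc1, which helps assemble the membrane subunits, was lower by -1.54. The higher ones were Poldip2 (51.9 against 16.3 CPM), which is known to bind p22phox, and Sh3pxd2a (13.6 against 4.86 CPM), each with a gate at 0. The activation and signalling list had 12 of 15 genes lower and none higher. Its median was -7.73, against 2.07 over all genes in this fit. Vav1 (-10.95) and Dock2 (-10.12), which activate Rac GTPases, were at one end and Prkcd (-2.67), a kinase of p47phox, at the other. Of the receptors that start a burst, 10 of 12 tested were lower and none higher, among them Fcgr3 (-10.78), its signalling chain Fcer1g (-10.74) and Tlr4 (-2.83). The list was lower in 10 of 12 genes in the DC gate, too, where 5.26% of all genes were, and in 6 of 12 in the basophil gate, where 3.57% were.

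Of the transcription factors of phagocyte genes, 4 of 8 tested were lower in the tumour gate and none higher. Spi1, which encodes PU.1, was lower by -11.72, Irf1 by -1.70 and Cebpb by -1.44. Irf8 was lower by -1.80 there and higher by 2.48 in the DC gate. Spi1 was 1094 and 1407 CPM in the neutrophil gate, 691 and 697 in the monocyte gate, 308 and 199 in the basophil gate and without a UMI in the T gate. In cells passing exactly 1 gate, the neutrophil and basophil gates held Spi1 and no Cybb UMI. The T gate held Cyba and Rac2 and no Spi1 UMI. When cells were kept in every gate they passed, there were 99 Cybb UMIs in the neutrophil gate and 34 in the basophil gate. The neutrophil gate was also small, with 70582 UMIs. A link between Spi1 and these genes was not tested. Of the genes that handle superoxide and peroxide, 2 of 13 were higher in the tumour gate (Prdx6 by 1.90, Prdx2 by 1.75), a smaller share than the 33.6% of all genes, and 2 lower (Prdx5 by -1.49, Gpx1 by -1.47). Of 6 genes that supply NADPH, 3 were lower, where 8.82% of all genes were: Taldo1 (-2.01), Pgd (-1.79) and G6pdx (-1.14). Another 2 were higher, Pgls (1.04) and Me1 (14.6 against 0.126 CPM), a share close to the 33.6% of all genes called higher.

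The genes most like each member over the 16 sums of gate and library were listed by Pearson's r of log2(CPM + 1), as a description. All points share libraries, and for 5 members the near-empty tumour gate weighs on r. Cybb was most like Fcgr1 (r = 0.971), Ms4a6d (0.958) and Pld4 (0.957). Cyba was most like Ucp2 (0.983), Dock2 (0.977) and Cd52 (0.975). Ncf1 was most like Orai1 (0.931), Nrros (0.927) and Snx20 (0.926), and Ncf4 like Gm2a (0.964), Slfn2 (0.960) and Hcls1 (0.954). Rac2 was most like Rassf5 (0.983), Gmfg (0.979) and Pik3cd (0.971). For Nox4 the leading genes, Kcnj4, Bmper and Gm47316, were found only in the tumour gate, as it was. Among the members themselves the highest r were between Rac2 and Ncf4 (0.897) and between Cyba and Ncf4 (0.883), and that between Cybb and Ncf1 was 0.254.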

How the data were processed

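The deposited matrices hold raw UMI counts per gene and barcode, which the authors made with Cell Ranger 3.1 and STAR on mm10, per the labels' protocols. Those protocols also name an equalising of read depth, yet totals differ between the libraries, and no further scaling was undone. The gene annotation behind the counts is not given in the sources used here.

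Members, gates and gene lists were chosen with earlier results of these data known. Cells passing exactly 1 gate were summed per gate and library. The 16 sums of 8 gates entered edgeR 4.0.16 (R 4.3.3) quasi-likelihood tests, with TMM factors and the library as a block, on 13437 genes with at least 10 counts in both libraries of a gate; with 7 residual degrees of freedom the prior degrees of freedom were infinite, which makes p-values small. The fit was tested on simulated data. A contrast sets a gate against a mean of log2 levels, so it can differ from a ratio of CPM. Means are over the 2 libraries; exact 95% intervals and the floor of 3 UMIs cover counting error only. Doublets called by scrublet (0.439% of kept barcodes) were left in and removed as an alternative. Comparisons with 3 phagocyte gates, and cells with tumour markers left out, were added after seeing the data. Alternatives used DESeq2 1.42.0, other scaling, filters and gates.

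All 6 members are described. From each list the 2 called genes with the largest and the 1 with the smallest difference between tumour and phagocyte gates are named, beside Rac1, Cybc1, Hvcn1, Spi1 and Irf8, and for each member the 3 most alike genes; 2 list genes are not reported here.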

Additional observations from a re-analysis of the deposited data

How the results depend on the processing

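Of 484 alternative values of the members' fold changes, 425 kept direction and call, 16 lost the call, 15 gained it and 28 changed sign. The fit with no replicate block gave the same number of called members in all 8 comparisons (for Cybb in the monocyte gate 1.26 against 1.25 with the block), and nothing in the labels pairs the samples beyond the library number. Leaving out a library leaves no test: Ncf4 in the tumour gate, for example, was -12.11 and -9.85.

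The larger changes in the count of called members follow, with the share of all genes called under the same setting. The count was 3 (6.59%) between the C1qa gates without Malat1-free barcodes. With cells kept in every gate it was 1 (2.61%) in the neutrophil and 5 (39.8%) in the basophil comparison. In the DC comparison it was 4 with DESeq2 (19.3%), cells kept in every gate (24.3%) and doubled thresholds (22.2%). It was also 4 with the neutrophil gate left out of the mean (19.4%). Smaller changes occurred in the tumour, neutrophil, basophil, DC and T comparisons. For example, DESeq2 gave 5 in the tumour (41.8%) and 5 in the T comparison (13.6%). The Cybb share of Cybb and Cyba was 16.3% (Cx3cr1-high), 29.0% (monocyte) and 16.8% (neutrophil) with cells kept in every gate, 31.6% (Cx3cr1-low; 19.0 and 44.1% in the libraries) without Malat1-free barcodes and 2.34% (neutrophil; 4.69 and 0%) with doubled thresholds.

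Most changes of sign were of values near 0, on the log2 scale. Between the C1qa gates they were Cybb -0.079 without Malat1-free barcodes and -0.020 with at least 5000 UMIs, Cyba -0.088 with doubled thresholds and Ncf4 0.74 without Malat1-free barcodes. Rac2 there was 0.00494 with DESeq2, 0.0049 with RLE factors, 0.011 with filterByExpr, 0.38 with cells kept in every gate, 1.5 without Malat1-free barcodes, 0.042 with 500 genes, 0.034 with 10% mitochondrial UMIs, 0.061 with doubled thresholds and 0.24 with at least 5000 UMIs. Between monocyte and C1qa gates, Cyba was 0.090 and Ncf1 0.24 with cells kept in every gate, Cyba 0.43 without Malat1-free barcodes and 0.042 with at least 5000 UMIs, and Rac2 -0.11 with DESeq2, -0.11 with RLE factors, -0.015 with filterByExpr and -0.042 with doubled thresholds. Between neutrophil and monocyte gates, Ncf1 was -0.25 with doubled thresholds and Ncf4 0.19 with DESeq2 and with RLE factors. In the basophil gate, Ncf1 was -2.66 and Rac2 -3.03 with cells kept in every gate, and Rac2 -0.15 with doubled thresholds. In the DC gate, Ncf1 was -0.53 with cells kept in every gate. Apart from the change in which cells a gate holds, the cause was not tested. Calls near the fold threshold were lost for Cyba in the neutrophil gate (-0.78 with DESeq2 or RLE factors) and Ncf1 in the basophil gate (0.90 with either, 0.65 with doubled thresholds). RLE factors moved all genes by 0.27 between neutrophil and monocyte gates. The neutrophil gate, with 70582 UMIs, set the weakest limit on Cybb.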
